A study of Mus musculus with 28 samples.

Results

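Toll-like receptors are pattern receptors that recognise microbial products and molecules released from damaged cells. All but *Tlr3* signal through the adaptor MyD88, *Tlr3* signals through TRIF (the product of *Ticam1*), and *Tlr4* uses both; the pathways end in NF-kB and interferon regulatory factors, which drive cytokine and chemokine genes. In the brain these receptors are best known in microglia, and alcohol research has linked them, together with the alarmin HMGB1 and interleukin 1 signaling, to neuroimmune responses to drinking. The 10 genes described here were taken by symbol from a list of such genes: the receptors *Tlr2*, *Tlr3*, *Tlr4* and *Tlr7*, the adaptors *Myd88* and *Ticam1*, the alarmin *Hmgb1*, the interleukin 1 receptor *Il1r1*, the cytokine *Il1b* and the chemokine *Ccl2*. All 10 were among the 49477 genes shared by the count tables, and 8 of them passed the filter of 10 or more counts on average, which left 16266 genes to test. *Il1b* and *Ccl2* were under this filter.

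The RNA came from amygdala punches of 28 adult female mice of the C57BL6/J strain, sequenced in 2 batches of 11 and 17 mice. Water mice (n = 10, of which 4 were in the first batch) never had access to alcohol, Acute mice (n = 9, 4 in the first batch) had a single access to 20% alcohol, and Chronic mice (n = 9, 3 in the first batch) had 20% alcohol every other day for a month. All mice were housed singly with a choice between bottles, drinking was voluntary and the dose was not fixed. The labels name no other agent or genotype. The drinking mice kept their alcohol and water bottles until tissue was taken, early in the light phase. Punches included the basolateral and central amygdala, so each value is a mean over neurons, glia and vessels.

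Total counts per mouse ranged from 20004380 to 22569562. In the second batch the totals were lowest in Water mice (20004380 to 20208978), against 20117248 to 20361343 in Acute and 20135215 to 20890964 in Chronic mice. All 10 neuron markers, all 10 microglia markers and all 10 astrocyte markers passed the filter. The 8 blood leukocyte markers were all under it, with means of 0.214 to 8.11 counts. The 6 choroid plexus markers also passed, with means of up to 23890 counts, and their score ran from -3.56 to 3.07 over the mice. Marker scores, which are the mean log2 CPM (counts scaled to the TMM-normalized library total) of a list with batch means removed, were compared between the groups for 9 cell types in 27 comparisons. None passed after Benjamini-Hochberg adjustment (lowest exact p = 0.0767, adjusted p = 0.949). The microglia score differed by 0.0151 between Acute and Water and by -0.0023 between Chronic and Water (exact permutation p = 0.686 and p = 0.949).

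Upstream sequence is shown for 3 of the genes: *Myd88*, the gene with the smallest p of the 10, *Tlr2*, a receptor gene, and *Il1b*, a gene that was nearly silent. The bases come from RefSeq's promoter windows on GRCm38.p6, which held 7 of the 10 genes, and are read 5′ to 3′ on the minus strand, upstream of the RefSeq start and up to the first base that GENCODE M21 annotates as exon. Capitals mark matches to 1 of 4 motifs searched on both strands of the 250 bases upstream: an NF-kB type site (GGGA, 4 bases of any kind, CC), an interferon response type element (GAAA, 2 bases of any kind, GAAA), an AP-1 type site (TGA, 1 base of any kind, TCA) and a TATA box (TATAAA).

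Myd88, chr9:119340042-119340268: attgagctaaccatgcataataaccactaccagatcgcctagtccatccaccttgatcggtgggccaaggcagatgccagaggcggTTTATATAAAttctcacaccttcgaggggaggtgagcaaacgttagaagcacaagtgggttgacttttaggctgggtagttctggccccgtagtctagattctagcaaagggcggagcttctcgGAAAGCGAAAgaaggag
Tlr2, chr3:83841768-83841858: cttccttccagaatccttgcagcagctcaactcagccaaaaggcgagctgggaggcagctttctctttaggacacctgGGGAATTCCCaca
Il1b, chr2:129371140-129371389: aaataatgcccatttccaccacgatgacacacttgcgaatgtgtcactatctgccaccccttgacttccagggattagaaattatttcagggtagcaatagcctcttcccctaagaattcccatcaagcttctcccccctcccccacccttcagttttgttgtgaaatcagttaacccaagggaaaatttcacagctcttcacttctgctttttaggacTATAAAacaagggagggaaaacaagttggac

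The *Myd88* stretch lay inside the gene's annotated span, in an intron of a GENCODE transcript that starts farther upstream. Its interferon response type match was 31 to 40 bases before the RefSeq start, and 2.98% of all 32851 windows held such a match. Its overlapping TATAAA matches, on opposite strands, were 155 to 164 bases before the start. The *Tlr2* stretch held an NF-kB type match 163 to 172 bases before the start, a motif found in 17.6% of windows, and *Tlr3* held 2 such matches. The *Il1b* stretch held TATAAA 26 to 31 bases before the start, against 12.4% of windows. The AP-1 type site was found in none of the windows of these genes and in 6.75% of all windows. The windows of *Ticam1*, *Hmgb1* and *Il1r1* held no match. These are matches of letters only, and no binding was measured.

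Levels per length were compared in the Water mice as CPM per kilobase of merged exon. *Hmgb1*, which encodes a chromatin protein of nearly all cells that acts as an alarmin once released, stood far above the rest at 32.7 ± 2.25 CPM per kilobase (SD, n = 10). *Tlr3*, the endosomal receptor for double-stranded RNA, followed at 2.76 ± 0.21, then the adaptors *Myd88* at 1.71 ± 0.13 and *Ticam1* at 1.48 ± 0.11. *Tlr7*, the endosomal receptor for single-stranded RNA, was at 0.77 ± 0.11 and *Il1r1*, the signaling receptor of interleukin 1, at 0.65 ± 0.31. The surface receptors *Tlr2*, which senses lipoproteins, and *Tlr4*, which senses lipopolysaccharide, were lowest of the tested genes, at 0.33 ± 0.09 and 0.18 ± 0.04.

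In this order the ranges of the Water mice overlapped between *Myd88* and *Ticam1*, between *Tlr7* and *Il1r1*, between *Il1r1* and *Tlr2*, and between *Tlr2* and *Tlr4*. They did not overlap between *Hmgb1* and *Tlr3*, between *Tlr3* and *Myd88*, or between *Ticam1* and *Tlr7*. The Water mice averaged 5.77 CPM of *Il1r1* in the first batch and 3.02 CPM in the second, against 3.17 and 3.14 CPM of *Tlr7*. The place of *Il1r1* beside *Tlr7* thus depends on the batch. For comparison, the 10 microglia markers had a median level of 12.6 CPM per kilobase in the same mice.

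**Figure D1:**
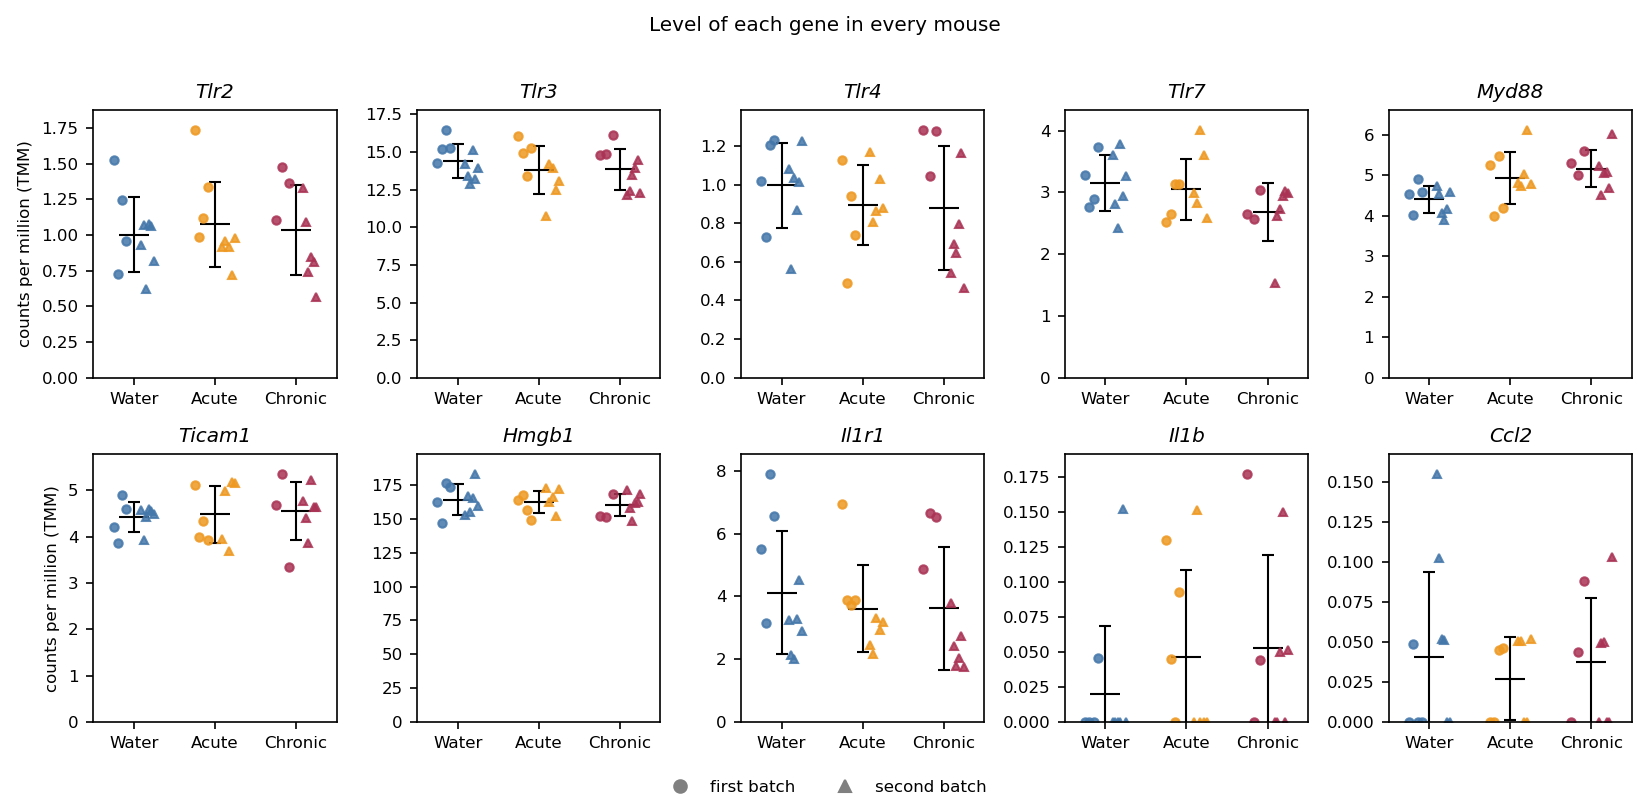
CPM after TMM normalization of the 10 genes in each of the 28 mice, by drinking group, on linear axes that start at 0; circles are first-batch and triangles second-batch mice, and black lines give the mean and SD of a group over both batches. *Myd88* lay higher in Chronic mice, with a mean of 5.17 CPM, than in Water mice, with 4.41, while *Il1r1* and *Tlr2* separated by batch more than by group, and *Il1b* and *Ccl2* were at 0 in many mice.

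Drinking groups were compared in edgeR (quasi-likelihood test, batch in the model, all genes fitted together), and a gene is called at an adjusted p (Benjamini-Hochberg, over all 16266 genes) under 0.05. None of the 8 tested genes was called in any comparison. Over all genes, 0 were called in Acute vs Water (0.0%), 3 in Chronic vs Water (0.0184%) and 0 in Chronic vs Acute (0.0%). Before adjustment, 1 of the 8 genes had a p under 0.05 in Acute vs Water, beside 9.52% of all genes, 2 in Chronic vs Water, beside 10.5%, and 0 in Chronic vs Acute, beside 4.44%. Of the 8 genes, 3 were higher and 5 lower than in Water in both comparisons, with median log2 fold changes of -0.03 in Acute and -0.04 in Chronic mice, against medians near 0.00 over all genes tested. In bulk tissue, fewer cells that express a gene and less RNA per cell cannot be told apart.

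*Myd88* (ENSMUSG00000032508, chr9:119335934-119341411, GRCm38), the shared adaptor of most Toll-like receptors and of the interleukin 1 receptor, came closest to the threshold, in Chronic mice. In the first batch its level was 4.02, 4.53, 4.59 and 4.90 CPM in the Water mice, 3.99, 4.2, 5.25 and 5.47 CPM in the Acute mice and 5.0, 5.30 and 5.60 CPM in the Chronic mice. In the second batch it ranged from 3.89 to 4.74 CPM in Water mice (median 4.35), and from 4.50 to 6.03 CPM in Chronic mice (median 5.07). The 5 Acute mice of the second batch were at 4.75, 4.79, 4.82, 5.02 and 6.12 CPM. Every Chronic mouse of the first batch was thus above every Water mouse, as was every Acute mouse of the second, whereas the Acute mice of the first batch and the Chronic mice of the second overlapped Water. None of the other 9 genes had groups apart in any of these comparisons. Among all genes tested, groups were apart for 4.56% in Chronic vs Water and 4.09% in Acute vs Water of the first batch, and for 0.775% and 0.418% in the second.

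The log2 fold change of *Myd88* was 0.23 ± 0.07 (SE) in Chronic vs Water, or 17.2% higher with a 95% interval of 5.63% to 30.05% (unadjusted p = 0.00404, adjusted p = 0.243, edgeR), and ranked 270th of all genes by p. All 9 Chronic mice lay above the mean of the Water mice of their batch. An exact permutation test of group labels within the batches, over 32340 regroupings and 2-sided, gave p = 0.000711. It was run on the 10 genes in 3 comparisons, 30 tests in all, and its p is not adjusted for them. Within the batches the difference in log2 CPM was 0.23 in the first (exact p = 0.0571; 35 regroupings, so no p under 0.0286 is possible) and 0.23 in the second (exact p = 0.0152).

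In Acute vs Water *Myd88* had a log2 fold change of 0.16 ± 0.07 (unadjusted p = 0.0360, adjusted p = 0.502, edgeR), and 7 of 9 mice were above the Water mean. The exact permutation p was 0.0433 over both batches, 0.686 in the first batch (difference 0.06) and 0.00433 in the second (0.23). With each mouse left out in turn the exact permutation p ran from 0.00928 to 0.0965 and was under 0.05 in 18 of 28 cases. The difference between the batches was itself tested as an interaction and was 0.17 ± 0.15 (adjusted p = 0.999). Chronic and Acute mice differed by 0.07 ± 0.07 (adjusted p = 0.999), with a 95% interval from -0.09 to 0.22. *Myd88* overlaps *Acaa1a*, a peroxisomal thiolase gene on the opposite strand with a mean of 806 counts, whose log2 fold change was -0.02 in both comparisons with Water, and *Slc22a14* on the same strand, with a mean of 0.286 counts. Use of strand in the counting is not given in the sources used here, so *Myd88* values may hold reads of *Acaa1a*. With offsets for the trend of each library on GC content and length of genes, chosen after seeing the data, the log2 fold change of *Myd88* was 0.19 in Chronic (unadjusted p = 0.0123) and 0.14 in Acute mice (unadjusted p = 0.0598). The part of the lower totals of the second-batch Water mice in these differences was not tested.

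*Ticam1* (chr17:56269319-56276786), the adaptor of the *Tlr3* branch, had log2 fold changes of 0.02 ± 0.08 in Acute and 0.04 ± 0.08 in Chronic mice. Its group levels were 4.42 ± 0.32 CPM in Water (SD, n = 10), 4.49 ± 0.62 in the Acute and 4.55 ± 0.63 in the Chronic group (n = 9 each), and the groups overlapped widely. The 95% interval in Chronic vs Water ran from -8.92% to 15.8%.

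Among the receptors, *Tlr7* (chrX:167304929-167330558) was the only one with an unadjusted p under 0.05, and it was lower in Chronic mice. In the first batch it was at 2.76, 2.90, 3.28 and 3.73 CPM in Water mice and at 2.57, 2.65 and 3.04 CPM in Chronic mice. In the second batch Water mice ranged from 2.42 to 3.79 CPM (median 3.11) and Chronic mice from 1.53 to 3.03 CPM (median 2.83). The groups overlapped in both batches, although all 9 Chronic mice were below the Water mean. The log2 fold change was -0.24 ± 0.11 (unadjusted p = 0.0461, adjusted p = 0.470, edgeR; exact permutation p = 0.0435). It rested partly on 1 Chronic mouse of the second batch, replicate 1, at 1.53 CPM. Without this mouse the value was -0.16 (unadjusted p = 0.108, adjusted p = 0.662, edgeR; exact permutation p = 0.0962). The exact permutation p was under 0.05 in 18 of 28 cases with a mouse left out. In Acute mice the log2 fold change was -0.05 ± 0.11 (adjusted p = 0.925).

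*Tlr3* (chr8:45395665-45411080) was measured more precisely than the other receptors, with a mean of 291 counts and 14.4 ± 1.12 CPM in Water, 13.8 ± 1.60 in the Acute and 13.8 ± 1.38 in the Chronic group. Its log2 fold changes of -0.07 ± 0.05 in Acute and -0.04 ± 0.05 in Chronic mice had 95% intervals of -11.3% to 2.22% and -9.64% to 4.18%. *Tlr2* (chr3:83836272-83841767) was at 1.0 ± 0.26 CPM in Water, 1.07 ± 0.30 in the Acute and 1.04 ± 0.31 in the Chronic group. Its log2 fold change of 0.07 ± 0.16 in both comparisons turned to -0.05 in the second batch alone.

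*Tlr4* (chr4:66827584-66930284) had a mean of 19.3 counts, and its log2 fold changes were -0.16 ± 0.19 in Acute and -0.17 ± 0.19 in Chronic mice. In Chronic mice the batches went opposite ways. In the first, Water mice were at 0.73, 1.02, 1.20 and 1.23 CPM and Chronic mice at 1.04, 1.28 and 1.28 CPM, whereas in the second the medians were 1.02 and 0.67 CPM. The batch by group interaction for *Tlr4* was -0.62 ± 0.35 (unadjusted p = 0.0865, adjusted p = 0.849), and it had the smallest p of the 8 genes. No interaction of these genes was called in either comparison with Water, beside 0.0% of all genes for Acute and 0.00615% for Chronic.

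*Hmgb1* (chr5:149046702-149184489) was the most precise of the 10 genes, with a mean of 3363 counts. It was at 164.4 ± 11.3 CPM in Water (SD, n = 10), 162.6 ± 8.39 in the Acute and 160.3 ± 8.38 in the Chronic group (n = 9 each). Its log2 fold changes were -0.01 ± 0.04 and -0.04 ± 0.04, with 95% intervals of -6.28% to 4.54% (Acute) and -7.78% to 2.88% (Chronic). Reads of its pseudogenes could mix with its own. The 13 named copies were all under 10 mean counts and summed to 12.9. *Uspl1*, which overlaps it on the opposite strand, had a mean of 666 counts and log2 fold changes of 0.02 and 0.03.

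*Il1r1* (chr1:40225080-40317257) had the widest spread of the tested genes. In the first batch it was at 3.15, 5.50, 6.55 and 7.89 CPM in Water mice, 3.72, 3.88, 3.90 and 6.94 CPM in Acute mice and 4.86, 6.52 and 6.66 CPM in Chronic mice. In the second batch the medians were 3.08 CPM in Water, 2.93 CPM in Acute and 2.24 CPM in Chronic mice. Its mean level in the second batch was 0.507 times its mean in the first, while this ratio was between 0.736 and 1.03 for the other tested genes. The log2 fold changes were -0.21 ± 0.18 in Acute and -0.16 ± 0.18 in Chronic mice (adjusted p = 0.722 and 0.791, edgeR), and the intervals were -33.1% to 11.3% and -30.6% to 15.3%. In Chronic vs Water the value was 0.06 in the first batch alone and -0.32 in the second, and -0.24 to -0.08 with a mouse left out.

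The outputs were near or at the limit of detection. *Il1b* (chr2:129364570-129371139) had 4 counts in all 10 Water mice together, 9 in the 9 Acute and 10 in the 9 Chronic mice, and was at 0 in 8, 5 and 4 of them. Pooled over a group this is 0.0196 CPM in Water mice (95% Poisson interval 0.00535 to 0.0503), 0.0479 in Acute (0.0219 to 0.091) and 0.0531 in Chronic mice (0.0254 to 0.0976). *Ccl2* (chr11:82035571-82037453), a monocyte attractant, had 8, 5 and 7 counts. These intervals cover counting error only, and they overlap between the groups. Exact permutation p-values were 0.336 and 0.214 for *Il1b*, and 0.595 and 0.905 for *Ccl2*, in Acute and Chronic vs Water. Without Water replicate 5 of the second batch, which held 3 of the 4 Water counts, the exact permutation p of *Il1b* in Chronic vs Water was 0.0381, and it was over 0.05 in the other 27 cases with a mouse left out. At this depth 3 counts in a mouse of average total correspond to 0.143 to 0.147 CPM. *Il1bos*, on the strand opposite *Il1b*, had a mean of 2.93 counts.

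**Figure D2:**
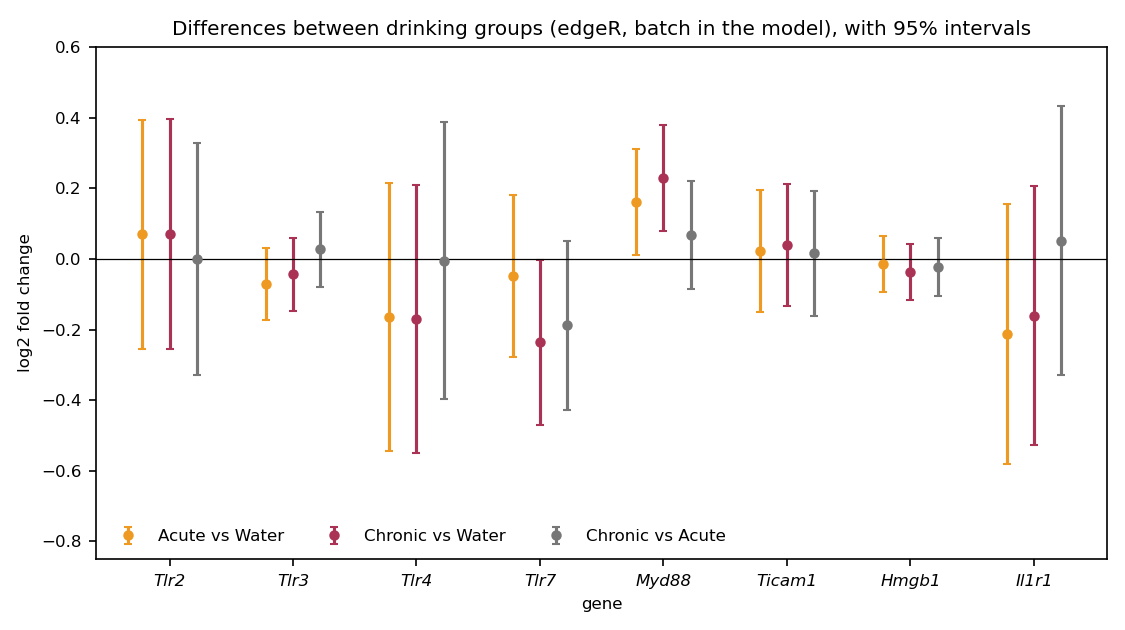
Log2 fold changes of the 8 tested genes (y axis) in the 3 comparisons, with 95% intervals from edgeR over 28 mice. The *Myd88* intervals against Water and the *Tlr7* interval in Chronic vs Water leave out 0, and no gene passed adjustment over all 16266 genes.

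The precision set what could be seen. The SD between mice of the same batch and group was 6.09% of the mean for *Hmgb1* and 10.4% for *Myd88*, where counting alone gives 1.72% and 10.01%. For *Tlr2* and *Tlr4* it was 23.8% and 23.9%, against 21.5% and 22.8% from counting. For *Il1r1* it was 30.5%, against 11.2% from counting. The half-width of the 95% interval in Chronic vs Water was 5.62% for *Hmgb1*, 7.37% for *Tlr3*, 10.96% for *Myd88*, 17.5% for *Tlr7*, and between 25.3% and 30.1% for *Tlr2*, *Il1r1* and *Tlr4*.

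Other genes of the pathway were taken from 9 lists of 83 genes, of which 81 were in both tables and 57 were tested; *Cd14* and *Pik3ap1* were listed in the second batch only. None was called in any comparison. Before adjustment 5 of 57 had a p under 0.05 in Acute vs Water (8.77%, beside 9.52% of all genes), 4 in Chronic vs Water (7.02%, beside 10.5%) and 5 in Chronic vs Acute (8.77%, beside 4.44%). The median log2 fold change was 0.03 in Acute and 0.02 in Chronic mice. These shares were near those of all genes for both comparisons with Water.

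*Nfkbia* had the smallest p of the lists. It encodes IkB alpha, which holds NF-kB in the cytoplasm and is itself an NF-kB target gene. Its level ranged from 12.1 to 16.0 CPM in Water mice (median 13.5), from 14.7 to 19.5 CPM in Acute (median 15.7) and from 14.01 to 17.7 CPM in Chronic mice (median 15.5). The log2 fold change was 0.26 ± 0.06 in Acute mice (unadjusted p = 0.000185, adjusted p = 0.194, edgeR) and 0.20 ± 0.06 in Chronic mice (unadjusted p = 0.00246, adjusted p = 0.239). All 9 Acute and all 9 Chronic mice were above the mean of the Water mice, and the difference in log2 CPM was 0.28 and 0.24 in the batches for Acute, and 0.18 and 0.21 for Chronic mice. DESeq2 called it in Acute vs Water, with an adjusted p of 0.0486 with batch as a covariate, among 9 genes called, and 0.0355 after ComBat-seq, among 30. No other alternative called it, and the adjusted p reached 0.915 in the second batch alone. In Chronic vs Water no alternative called it, and the adjusted p ran from 0.0976 with DESeq2 and batch to 1.0 in the first batch alone, with none given by DESeq2 after ComBat-seq. With the GC content and length offsets the log2 fold change was 0.23 in Acute mice (unadjusted p = 0.000412, adjusted p = 0.447, edgeR). In Chronic mice it was 0.16 with them (unadjusted p = 0.00932, adjusted p = 0.638).

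Of the 7 tested negative regulators, *Nfkbia* included, 4 were higher and 3 lower than in Water in Acute mice, and 6 were higher and 1 lower in Chronic mice. Over all genes, 8224 were higher and 8042 lower in Acute mice, and 8295 higher and 7971 lower in Chronic mice. None of the 7 was called. Before adjustment 1 of 7 (Acute, 14.3%) and 2 of 7 (Chronic, 28.6%) had a p under 0.05, beside 9.52% and 10.5% of all genes. *Cyld*, a deubiquitinase that restrains NF-kB, was at 208 ± 15.1 CPM in Water and 188 ± 13.8 in Chronic mice, a log2 fold change of -0.14 ± 0.04 (unadjusted p = 0.00323, adjusted p = 0.241). *Sigirr*, an inhibitory receptor of the interleukin 1 receptor family, had log2 fold changes of -0.27 in Acute (unadjusted p = 0.133) and 0.15 in Chronic mice (unadjusted p = 0.344), and 0.42 between Chronic and Acute (unadjusted p = 0.0167, adjusted p = 0.998).

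Of the 8 transcription factor genes, 4 were higher and 4 lower than in Water in both comparisons. *Rela*, the p65 subunit of NF-kB, had a log2 fold change of 0.12 ± 0.05 in Acute (unadjusted p = 0.00979, adjusted p = 0.445) and 0.03 ± 0.05 in Chronic mice, and *Irf5*, which acts downstream of MyD88, of 0.26 ± 0.10 (unadjusted p = 0.0157, adjusted p = 0.462) and 0.17 ± 0.10. Among the 16 kinases and ubiquitin ligases, 13 were lower than in Water for each drinking group, with median log2 fold changes of -0.04 and -0.06. Over all 16266 genes, 8042 were lower in Acute and 7971 in Chronic mice, and the 2 comparisons share their Water mice. Before adjustment 1 of the 16 had a p under 0.05 in each comparison, beside 9.52% and 10.5% of all genes. *Peli1*, a ubiquitin ligase, was at -0.08 ± 0.03 in Chronic (unadjusted p = 0.0200, adjusted p = 0.370) and *Tab2*, which links TRAF6 to TAK1, at -0.06 ± 0.03 in Acute mice (unadjusted p = 0.0320, adjusted p = 0.498). *Traf3*, which passes signals to interferon regulatory factors, differed by 0.13 ± 0.06 between Chronic and Acute mice (unadjusted p = 0.0273, adjusted p = 0.998).

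Of the 8 other Toll-like receptors, 4 were tested. *Tlr13* had a log2 fold change of 0.26 ± 0.15 in Acute and -0.02 ± 0.15 in Chronic mice, and *Tlr1*, which pairs with *Tlr2*, of 0.17 ± 0.22 and 0.25 ± 0.22. *Tlr5*, *Tlr6*, *Tlr8* and *Tlr11* had means of 8.79, 9.43, 1.36 and 0.0714 counts and were not tested. Among the accessory proteins, *Cd36*, a scavenger receptor, was at -0.41 ± 0.21 in Acute mice (unadjusted p = 0.0613) and *Cnpy3*, a chaperone of Toll-like receptors, at 0.06 ± 0.03 in Chronic mice (unadjusted p = 0.0509). *Cd36* ranged from 32 to 221 counts over the mice, and no accessory gene was under -0.07 in Chronic vs Water. The adaptor *Tirap* was at 0.13 ± 0.11 in Acute mice, and the adaptor *Sarm1* at 0.05 ± 0.04 in Chronic mice. Both lay between 0.03 and 0.13 in Acute and between 0.04 and 0.05 in Chronic mice.

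In the interleukin 1 and inflammasome list, *Casp1*, the protease that matures interleukin 1 beta, was at 1.49 ± 0.39 CPM in Water and 1.96 ± 0.37 in Chronic mice, a log2 fold change of 0.39 ± 0.16 (unadjusted p = 0.0233, adjusted p = 0.382), and *Il33* was at 0.16 ± 0.09. Among the alarmins, *Hmgb3* was at 0.18 ± 0.08 in Acute mice (unadjusted p = 0.0418, adjusted p = 0.503) and -0.03 ± 0.09 in Chronic mice, and *Hmgb2* at 0.20 ± 0.16 in Chronic mice. Of the 14 genes in the list of cytokines, chemokines and related outputs, 12 had a mean of 3.43 counts or less. The highest of these was the chemokine receptor gene *Ccr2*, followed by the chemokine *Cxcl10* at 2.0 counts, and *Il10*, *Ifnb1* and *Cxcl2* were at 0 in every mouse. *Tnf* and *Il6* had means of 0.536 and 0.679 counts. The 2 tested were *Ptgs2*, which encodes cyclooxygenase 2 and had a mean of 226 counts and a log2 fold change of -0.07 ± 0.11 in Chronic mice, and *Nos2*, the inducible nitric oxide synthase, with a mean of 14.5 counts and 0.34 ± 0.20.

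**Figure D3:**
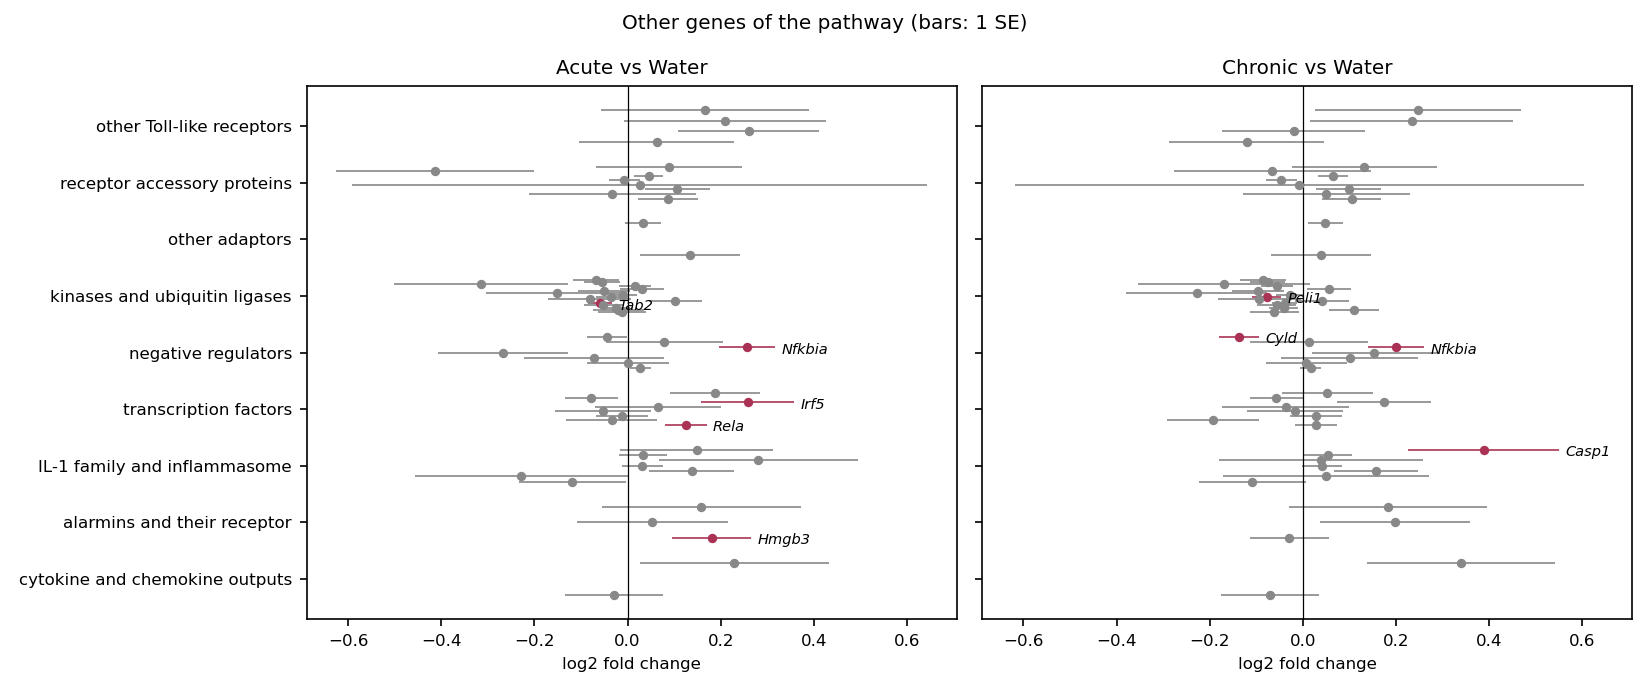
Log2 fold changes (x axis) of the 57 tested pathway genes by list, for Acute vs Water and Chronic vs Water; bars are 1 standard error (for *Sigirr* and *Ly96* shorter than their p implies), and red points with names have an unadjusted p under 0.05. There were 5 such genes in Acute and 4 in Chronic mice, with *Nfkbia* the only one in both, and none passed adjustment over all genes.

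Mice of the same group differed from each other in these genes, and the differences were compared with the marker scores after the mean of each group and batch was removed (28 mice, permutations within group and batch). The relation was first computed for the microglia score. Pearson's r ranged from -0.49 for *Hmgb1* (Spearman's rho -0.40, permutation p = 0.0140 and p = 0.0521) to 0.22 for *Myd88* (rho 0.24, permutation p = 0.237 and p = 0.219), and 7 of the 8 values were negative. *Hmgb1* and *Il1r1*, with r = -0.46 (rho -0.47, permutation p = 0.0222 and p = 0.0240), had an adjusted p of 0.0888 over the 8 relations, so that none was called. Between the batches r changed sign for *Tlr7* (-0.60 and 0.04) and for *Myd88* (-0.30 and 0.41).

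The same relation to the other 8 scores was added after these values had been seen, which made 72 relations with the microglia score included. It was called in 4, all of them of *Il1r1* and *Tlr2* with the meningeal fibroblast and choroid plexus scores (adjusted permutation p = 0.000180 each, from the smallest p of 1e-05 that 100000 permutations can give). *Il1r1* had r = 0.82 (rho 0.77, permutation p = 4e-05) with the meningeal fibroblast score, 0.88 and 0.79 in the batches, and 0.82 without the 2 mice farthest from the median score. Its r with the choroid plexus score was 0.71 (rho 0.71, permutation p = 8e-05), 0.90 and 0.74 in the batches, and 0.61 without the 2 farthest mice. *Tlr2* had r = 0.77 with the meningeal fibroblast score (rho 0.80, permutation p = 1e-05), 0.91 and 0.68 in the batches and 0.82 without the 2 farthest mice, and 0.70 with the choroid plexus score (rho 0.66, permutation p = 0.000210), 0.78 and 0.77 in the batches and 0.65 without them.

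The next 3 relations by p were of *Hmgb1* and *Tlr2*. *Hmgb1* had r = 0.57 and 0.51 with these scores (permutation p = 0.00614 and 0.00694, adjusted p = 0.0714 for both; rho 0.52 and 0.46, permutation p = 0.0143 and 0.0163). *Tlr2* had r = -0.55 with the neuron score (permutation p = 0.00628, adjusted p = 0.0714; rho -0.53, permutation p = 0.00895), -0.69 and -0.41 in the batches and -0.48 without the 2 farthest mice. *Il1r1* had r = -0.51 with it (permutation p = 0.0192, adjusted p = 0.133; rho -0.48, permutation p = 0.0183), -0.43 and -0.63 in the batches and -0.32 without the 2 farthest mice. *Myd88* and *Tlr4* had r of opposite sign in the batches with the meningeal fibroblast and choroid plexus scores, and *Tlr7* with the latter (0.09 and -0.25). For *Myd88* these were 0.37 and -0.25 with the meningeal fibroblast score and 0.55 and -0.48 with the choroid plexus score, and for *Tlr4* 0.45 and -0.17, and 0.69 and -0.03. The scores themselves had an r of 0.84 (rho 0.82), so that the 2 cell types cannot be told apart here, and these lists share no gene. The lists were *Dcn*, *Lum*, *Col1a1*, *Col1a2*, *Col3a1* and *Igf2* for meningeal fibroblasts and *Ttr*, *Folr1*, *Kl*, *Aqp1*, *Clic6* and *Kcnj13* for choroid plexus, and all 12 passed the filter.

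**Figure D4:**
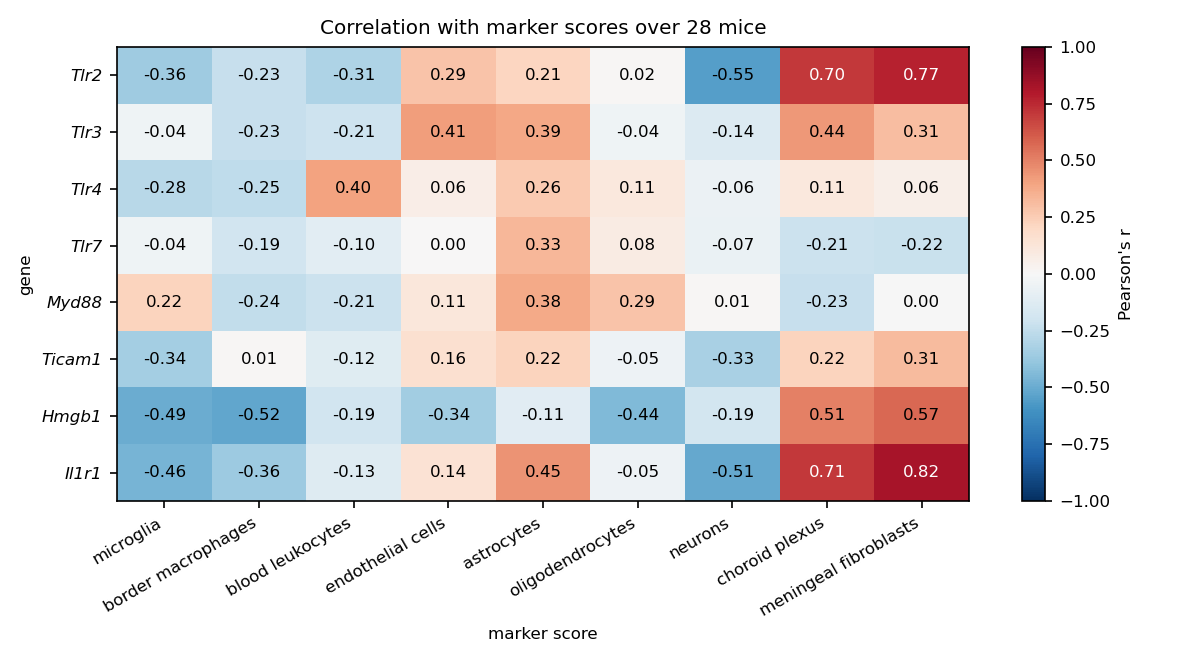
Pearson's r over 28 mice between the log2 CPM of each of the 8 tested genes (rows) and 9 marker scores (columns), both with the mean of each batch and group removed. *Il1r1* and *Tlr2* stand out in the meningeal fibroblast and choroid plexus columns, with r of 0.70 to 0.82, and the microglia column holds values from -0.49 to 0.22.

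**Figure D5:**
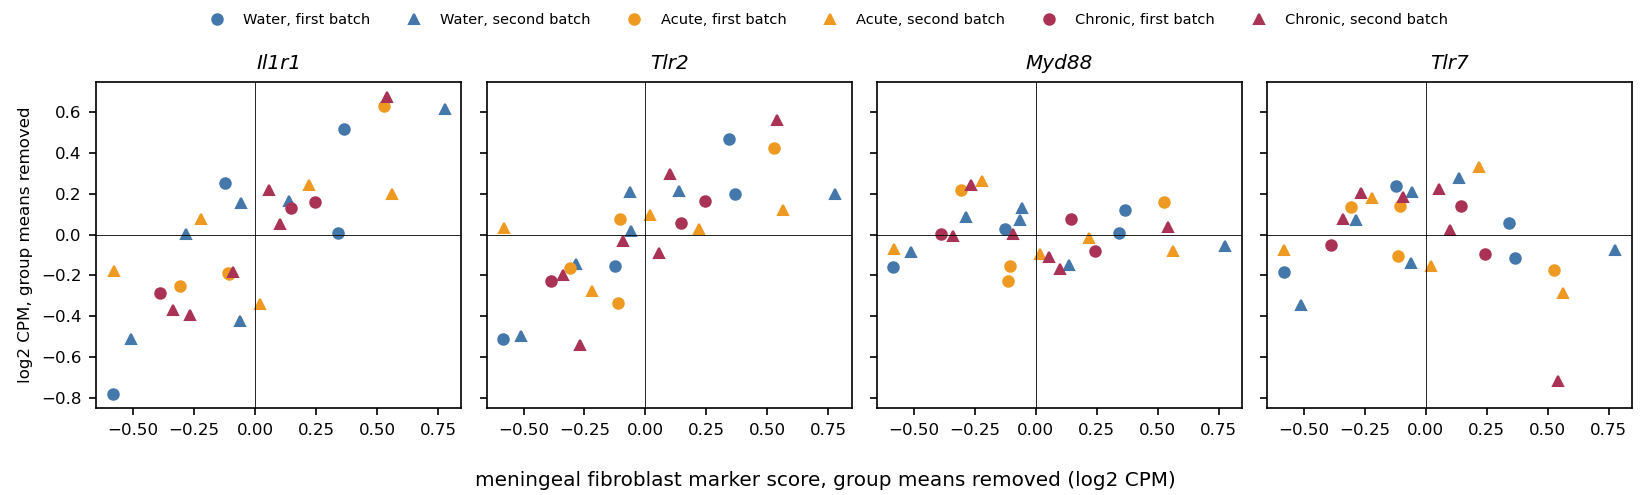
Log2 CPM of *Il1r1*, *Tlr2*, *Myd88* and *Tlr7* (y axis) against the meningeal fibroblast score (x axis, log2 CPM), each point a mouse, with the mean of its batch and group removed from both. *Il1r1* and *Tlr2* rise with the score (r = 0.82 and 0.77), *Myd88* and *Tlr7* had r of -0.00 and -0.22 over all mice, and the lowest *Tlr7* point is Chronic replicate 1 of the second batch.

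With the meningeal fibroblast score as a covariate in the edgeR fit, also chosen after seeing the data, the log2 fold change of *Il1r1* was -0.10 in Acute and -0.18 in Chronic mice (unadjusted p = 0.403 and 0.135), and that of *Tlr2* was 0.16 and 0.05. *Myd88* was at 0.16 and 0.23 (unadjusted p = 0.0426 and 0.00472), and *Tlr7* at -0.24 in Chronic mice. The meningeal fibroblast score itself differed by -0.13 between Acute and Water mice and by 0.02 between Chronic and Water (exact p = 0.503 and p = 0.919).

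Between themselves the 8 genes had a median r of 0.16 over 28 pairs, from -0.26 to 0.68. The highest was that of *Tlr2* with *Il1r1*. Of all 16266 genes, those most like each member over the mice, as residual log2 CPM, were *Cd24a*, *Car14* and *Alx4* for *Il1r1* (r = 0.91, 0.87 and 0.87) and *Crtap*, *Rab11fip1* and *Rdh5* for *Tlr2* (0.85, 0.82 and 0.78). For *Myd88* they were *Gart*, *Nop14* and *Pxmp2* (0.88, 0.74 and 0.70), and *Gart* kept 0.89 and 0.87 in the separate batches. For *Hmgb1* they were *Itfg1*, *6430531B16Rik* and *Idh1* (0.82, 0.81 and 0.81), and for *Tlr7* *Usp15*, *1700020D05Rik* and *Gm9794* (0.77, 0.73 and 0.70). For *Ticam1* they were *Rhoq*, *Cbs* and *Fxr1* (0.73, 0.72 and 0.69), for *Tlr4* *Glra4*, *Arcn1* and *Asb7* (0.73, 0.72 and 0.66), and for *Tlr3* *Nectin3*, *Siah1b* and *Iqck* (0.70, 0.64 and 0.64). These are the highest of many values over 28 mice that share libraries and normalization, and they are given as a description.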

How the data were processed

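RNA-seq counts of 28 mice were read from a table for each batch. The authors quantified paired-end reads with Salmon 0.14.1 (after FastQC 0.11.8) against GRCm38, used tximport to obtain gene values, and deposited these as whole-number counts that had not been batch-adjusted; use of strand was not given in the sources used here. Tables were joined on the gene identifier, and the 16266 genes averaging 10 or more counts were tested with edgeR 4.0.16 in R 4.3.3 (TMM, batch as a covariate, Benjamini-Hochberg, threshold 0.05). CPM used TMM library sizes and log2 CPM a prior count of 2. Standard errors were the fold change over the square root of F. For *Sigirr* and *Ly96* edgeR's p was larger than F alone gives, so the text gives no standard error for them.

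Named were the 10 members, in each pathway list the 2 of smallest p against Water, and the 3 genes most like each member. *Traf3*, *Sigirr*, neighbours of members and genes under the filter were named after their values were seen. The members and lists were chosen with earlier results of these data known. Pairs of mice within a group and batch differed by at least 3.90 in chi-square per degree of freedom, so each mouse was counted as 1 replicate. Replicate numbers of the second batch did not pair the mice. DESeq2 1.42.0, limma 3.58.1 (voom) and sva 3.50.0 (ComBat-seq) served the alternatives. Counts of 20004380 to 22569562 per mouse set the counting error.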

Additional observations from a re-analysis of the deposited data

Results flagged for a closer look

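*Tlr7* in 1 Chronic mouse of the second batch, replicate 1, was the only value flagged among 51 groups examined (8 genes and 9 marker scores in 3 groups), and chance flags about 1 in 20 such groups. At -0.896 log2 CPM with the batch mean removed, the mouse lay 0.72 below the next Chronic mouse, against a group median of -0.10. It had 31 counts, and the other Chronic mice of that batch had between 53 and 60. The cause was not tested.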

How the results depend on the processing

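Depth limits *Il1b*, *Ccl2*, *Tlr2* and *Tlr4*, and the spread between mice limits *Il1r1*. For *Myd88* too the SD within groups was close to that from counting alone, 10.4% against 10.01%. No member was called under any alternative, each mouse left out in turn included. DESeq2 gave no adjusted p for some members, and these are not counted. After ComBat-seq, in Chronic vs Water, it gave none for *Nfkbia*, with a mean of 317 counts. DESeq2 withholds adjusted p-values from genes of low mean. Members of lower mean than *Nfkbia*, *Myd88* at 99.9 counts included, were thus not judged in that setting. Pathway genes called in Acute vs Water were 1 with DESeq2, both with batch as a covariate and after ComBat-seq, and 0 otherwise.

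Over all genes, Acute vs Water gave 30 calls with ComBat-seq then DESeq2, 9 with DESeq2 and batch, 2 with limma-voom and 1 with no filter. Chronic vs Water gave 88, 38, 1 with GC content and length offsets and 0 in the first batch alone. Chronic vs Acute gave 1 with no filter. With a mouse left out the calls ranged between 0 and 2 (Acute vs Water) and between 2 and 6 (Chronic vs Water), the highest being without Chronic replicate 38 in the former and without Water replicate 3 in the latter. Of the 30 exact permutation tests (10 genes, 3 comparisons), the number with p under 0.05, 3 as reported, ranged from 1 to 3 and was 1 without Water replicate 4 of the second batch, where *Myd88* in Chronic mice had p = 0.00204, *Myd88* in Acute mice p = 0.0764 and *Tlr7* in Chronic mice p = 0.0855. In Chronic vs Water *Myd88* stayed between 0.20 and 0.25 with any mouse left out (unadjusted p at most 0.0114), and in Acute vs Water its unadjusted p was under 0.05 in 20 of 28 such fits.

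Some fold changes changed sign. In Acute vs Water these were *Tlr2* (-0.053), *Tlr7* (0.026) and *Hmgb1* (0.0095) in the second batch alone, *Hmgb1* (0.0018) with the meningeal score, and *Ticam1* in the first batch alone (-0.019) and with limma-voom (-0.0014). In Chronic vs Water they were *Tlr2* (-0.048) in the second batch alone, and *Tlr4* (0.20) and *Il1r1* (0.057) in the first alone. In Chronic vs Acute they were *Tlr2* with GC content and length offsets (-0.00092), limma-voom (-0.044), the meningeal score (-0.11) and no filter (-0.00025), *Tlr4* with DESeq2 (0.0022), these offsets (0.014), the first batch alone (0.54) and limma-voom (0.058), *Ticam1* with these offsets (-0.0066), the meningeal score (-0.0048) and the second batch alone (-0.00018), and *Il1r1* with the meningeal score (-0.079) and the second batch alone (-0.21). With a mouse left out, signs changed for *Tlr2* (-0.013 to 0.12), *Ticam1* (-0.010 to 0.057) and *Hmgb1* (-0.031 to 0.00096) in Acute vs Water, *Tlr2* (-0.0054 to 0.13) and *Ticam1* (-0.0048 to 0.089) in Chronic vs Water, and *Tlr2* (-0.072 to 0.082), *Tlr3* (-0.0051 to 0.049), *Tlr4* (-0.10 to 0.067), *Ticam1* (-0.027 to 0.068) and *Il1r1* (-0.019 to 0.14) in Chronic vs Acute. The causes were not tested.

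The replicate numbers of the second batch share only a number: same-numbered pairs had correlations of -0.35 to 0.34, with 4 of 16 over 0.1, and 1 of 17 mice correlated best with its own number. With a replicate block the members called stayed at 0, the genes called were 0, 3 and 0, and *Myd88* was at 0.18 in Acute and 0.23 in Chronic mice. The offsets and score covariates were chosen after seeing the data.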
